A study of Mus musculus with 2 samples.

Results

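Conventional CD4 T cells are the helper T cells that carry the CD4 co-receptor and are not regulatory T cells. They were taken as barcodes with at least 1 unique molecular identifier (UMI, 1 counted RNA molecule) of Cd4 and at least 1 over the CD3 chain genes Cd3e, Cd3d and Cd3g. Cd8a, Cd8b1, Foxp3, Cd79a, Ms4a1, Ncr1, Cdh5, Csf1r and Csf3r had to be at 0, and Ctla4 and Ikzf2 could not both be detected. This rule found 452 of 26650 kept barcodes, of which 231 came from the S100A4-11 antibody library and 221 from the IgG antibody library. The cells were thus selected on the measured UMIs of these genes, whose levels are no result.

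Each library was made from lung of BALB/c mice that bore 4T1 tumours, a mouse mammary carcinoma line placed in the mammary fat pad, and were given either S100A4-11 antibody or IgG antibody. Lungs were taken on day 14 after 4T1 inoculation, so both groups carried tumours and no tumour-free lung was analysed here. The protocol text speaks of tumour tissue where the other labels name lung, and the number and age of the animals in each library were not given in the sources used here. Both were 10x Genomics 5' single-cell libraries. With 1 library per antibody no p-value can be given, a difference between mice cannot be told apart from a difference between antibodies, and every interval below is a 95% interval that covers counting error only. A gene is called higher or lower where its level differed by at least 1.5-fold.

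Helper T cells leave the thymus naive and circulate through lymph nodes with the help of the chemokine receptor CCR7. After antigen contact they turn down Lef1, Tcf7 and Ccr7 and turn on CD40 ligand, OX40 (Tnfrsf4), galectin-1 (Lgals1) and the calcium-binding protein S100A4, and some settle in tissues such as lung as effector memory cells. The S100A4 protein also acts outside cells, where an antibody can reach it. The transcript of S100a4 does not report whether the antibody bound.

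The cells were detected at 1.87% (exact binomial interval 1.64 to 2.12) of kept barcodes with S100A4-11 antibody and 1.55% (1.35 to 1.76) with IgG antibody, a ratio of 1.21 with an interval of 0.9998 to 1.46. As a share of barcodes with a CD3 UMI they were 17.4% and 15.9%, a ratio of 1.09 (0.903 to 1.32). They made up 54.6% of conventional CD4 and CD8 T cells with S100A4-11 antibody and 54.8% with IgG antibody. Regulatory T cells, which the rule left out, were 50 of 281 CD4 cells with S100A4-11 antibody and 25 of 246 with IgG antibody, a ratio of 1.75 (1.06 to 2.95). The interval of the ratio held 1 for conventional cells under each denominator and lay above 1 for regulatory cells.

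Depth was alike, with a median of 4033 UMIs per cell with S100A4-11 antibody and 4111 with IgG antibody, and 980396 and 939553 UMIs in all. Median genes per cell were 1549 and 1603, and median mitochondrial shares were 1.75% and 1.79%. Across the 2 libraries 266 barcodes occurred in both, none of them a member in both, and 9 members had a barcode also present in the other library. At the edge of the rule, 154 cells with S100A4-11 antibody and 128 with IgG antibody had exactly 1 Cd4 UMI, and 298 and 330 barcodes stayed outside only because Cd4 was at 0. A further 65 barcodes in each library stayed outside only because they held a marker of another lineage.

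Detection of T cell genes that the rule did not use varied with the gene. Lck, the kinase at the T cell receptor, was detected in 78.4% of cells with S100A4-11 antibody and 79.6% with IgG antibody. Cd28, the costimulatory receptor, was detected in 64.9% and 66.1%, against 0.209% and 0.165% of B cells, which should lack it and had a median of 2930 and 2973 UMIs. Trac, the constant region of the receptor alpha chain, was detected in 39.8% and 46.2%, Trbc2 in 48.1% and 41.6%, Trbc1 in 24.7% and 22.6%, and the surface receptor genes Cd5 and Cd6 in 46.8% and 42.1% and in 30.7% and 26.7%. The NK cell markers Klrb1c, Klre1, Klra4, Klra7, Klra8 and Eomes had no UMI in either library, Prf1 had 9 UMIs with S100A4-11 antibody and 10 with IgG antibody, and Gzma had 2 and 4. Of regulatory T cell markers outside the rule, Il2ra was detected in 3.46% and 0.905% of cells, Izumo1r in 13.4% and 10.9%, Capg in 23.8% and 17.6%, and Ikzf4 in 4.33% and 1.81%. The other markers of that list went the other way, with Nrp1 in 3.90% and 7.69%, Tnfrsf9 in 2.16% and 2.71%, and Itgb8 in 0.433% and 0.905%. Zbtb16, the lineage factor of invariant natural killer T cells, had 5 UMIs in 5 cells with S100A4-11 antibody and 37 UMIs in 15 cells with IgG antibody. Of the other markers listed for those cells, Trav11 and Klrb1c had no UMI in either library. Cd160 had 1 UMI and 0 UMIs, and Slamf1 had 67 UMIs in 46 cells and 70 UMIs in 53 cells.

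Markers of lung epithelium differed between the libraries within these T cells. A UMI of the 10-gene epithelial list was found in 33.8% of cells with S100A4-11 antibody and 77.4% with IgG antibody, and the summed level was 134 and 397 counts scaled to a total of 1e+06 UMIs (CPM). Scgb1a1, the club cell secretory protein, had 7 UMIs in 5 cells with S100A4-11 antibody and 124 UMIs in 78 cells with IgG antibody. Sftpc, a surfactant protein of alveolar type 2 cells, had 69 UMIs in 57 cells and 182 UMIs in 113 cells. Summed levels were also lower with S100A4-11 antibody for endothelial markers, at 189 against 332 CPM, for monocyte and macrophage markers, at 93.8 against 252 CPM, for fibroblast or pericyte markers, at 210.1 against 326 CPM, and for red blood cell markers, at 192 against 403 CPM. The CD8 T cell list, in which Cd8a and Cd8b1 were at 0 by the rule, measured 107 against 67.1 CPM, a ratio of 1.60 (1.16 to 2.22), and Ccl5 made up 91 of its 105 UMIs with S100A4-11 antibody and 31 of 63 with IgG antibody. In the IgG antibody library 1 cell held 104 of the 237 monocyte and macrophage UMIs. Single cells also held 96 of 206 fibroblast UMIs with S100A4-11 antibody and 191 of 306 with IgG antibody, and 152 of 188 and 308 of 379 red blood cell UMIs. No cell of the IgG antibody library held more than 7 epithelial UMIs. Results were recomputed without cells that held 5 or more UMIs of another lineage, and with Lyz2, S100a8, Cd74, Sftpc and Epcam also at 0, and the part of the remaining transcripts was not tested.

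**Figure D1:**
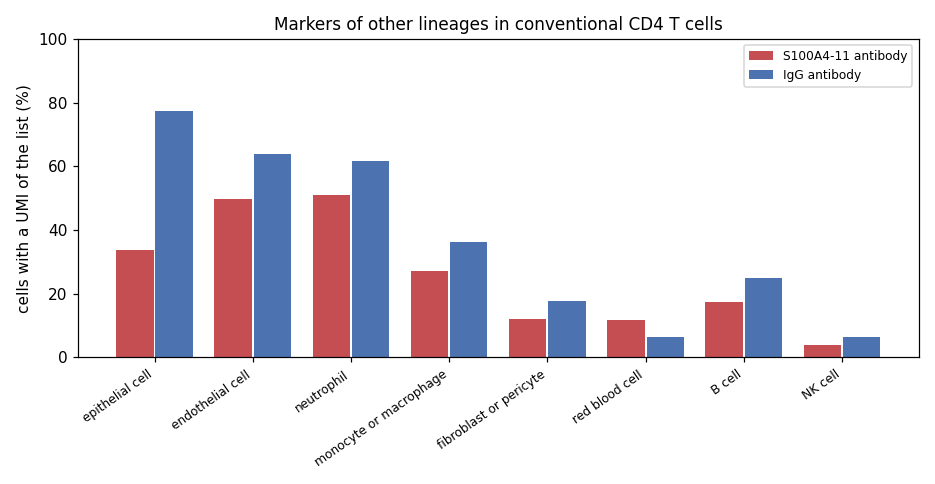
Share of conventional CD4 T cells (y axis, percent) with at least 1 UMI of each marker list of another lineage, for S100A4-11 antibody (red, left bar) and IgG antibody (blue, right bar), 1 library each. The epithelial bars stand furthest apart, at 33.8% and 77.4%.

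Most of the cells carried naive and central memory transcripts in both libraries. Ccr7 was detected in 80.1% (74.3 to 85.0) of cells with S100A4-11 antibody and 90.0% (85.3 to 93.7) with IgG antibody, and Lef1, a transcription factor of naive T cells, in 86.6% (81.5 to 90.7) and 94.1% (90.2 to 96.8). Lef1 was detected in 2.30% and 2.98% of B cells. Tcf7, which also maintains naive and memory T cells, was detected in 82.3% and 84.6%. The intervals of the 2 shares did not overlap for Ccr7 and overlapped for Lef1.

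Over both libraries, 2718 genes had at least 100 UMIs. Of these, 55 were higher (2.02%) and 64 were lower (2.35%) with S100A4-11 antibody, together 4.38%, and the median log2 ratio of all of them was 0.01. Under median-of-ratios scaling the split was 97 higher and 52 lower. Of the genes past the fold, 16 higher and 25 lower ones with at least 50 CPM had under 20% of the level seen in another cell class of the same library, and the part of free RNA of that class was not tested.

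None of the 15 measured naive and central memory genes passed 1.5-fold, with a median log2 ratio of -0.02. Within that list Ccr7 measured 1415 CPM with S100A4-11 antibody and 1718 with IgG antibody, a ratio of 0.824 (0.766 to 0.885). Lef1 measured 977 and 1158 CPM, a ratio of 0.844 (0.773 to 0.921). Il7r, the receptor for the survival cytokine interleukin-7, measured 857 and 1025 CPM, a ratio of 0.836 (0.761 to 0.918). Klf2, which drives exit into the blood, measured 2216 and 2200 CPM. The first 3 lay below a ratio of 1 by more than counting error and inside the 1.5-fold limit.

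**Figure D2:**
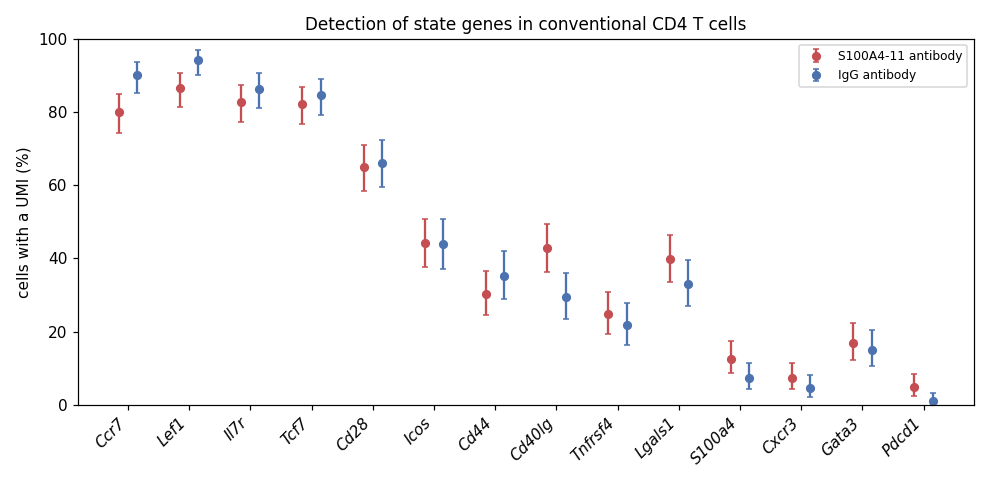
Share of conventional CD4 T cells (y axis, percent) with at least 1 UMI of each state gene for S100A4-11 antibody (red, left) and IgG antibody (blue, right), with exact 95% binomial intervals for counting error. Cd40lg sits at 42.9% with S100A4-11 antibody and 29.4% with IgG antibody, and Ccr7 at 80.1% and 90.0%.

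Effector memory and activation genes were the list with the most members past the fold. Of 17 measured genes 7 were higher with S100A4-11 antibody and none was lower, against 2.02% of all genes higher, with a median log2 ratio of 0.41 and 16 ratios above 1. The 7 were S100a4, Lgals1, Tnfrsf4, Cd40lg, Rgs1, Il2rb and Anxa2. This list, like the others, was chosen with earlier results of these data known. The contrast with all genes is thus a description and no independent test. In 9 of the 17 genes the level was under 20% of that in another cell class in at least 1 library. Among the 7 higher genes this held for S100a4, Lgals1, Il2rb and Anxa2. The count was 3 of 16 without cells that held 5 or more UMIs of another lineage's markers, and 1 of 14 without cells with a Ctla4, Ikzf2 or Il2ra UMI, genes shared with regulatory T cells. It was 3 of 17 where a UMI of Trac, Trbc1 or Trbc2 was also required. The median log2 ratio in these settings was 0.32, 0.26 and 0.32. Without the 29 and 16 cells that held an S100a4 UMI the count was 0 of 14, with a median of 0.15, but S100a4 is itself a higher gene of this list, so leaving out its cells lowers the difference by construction.

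**Figure D3:**
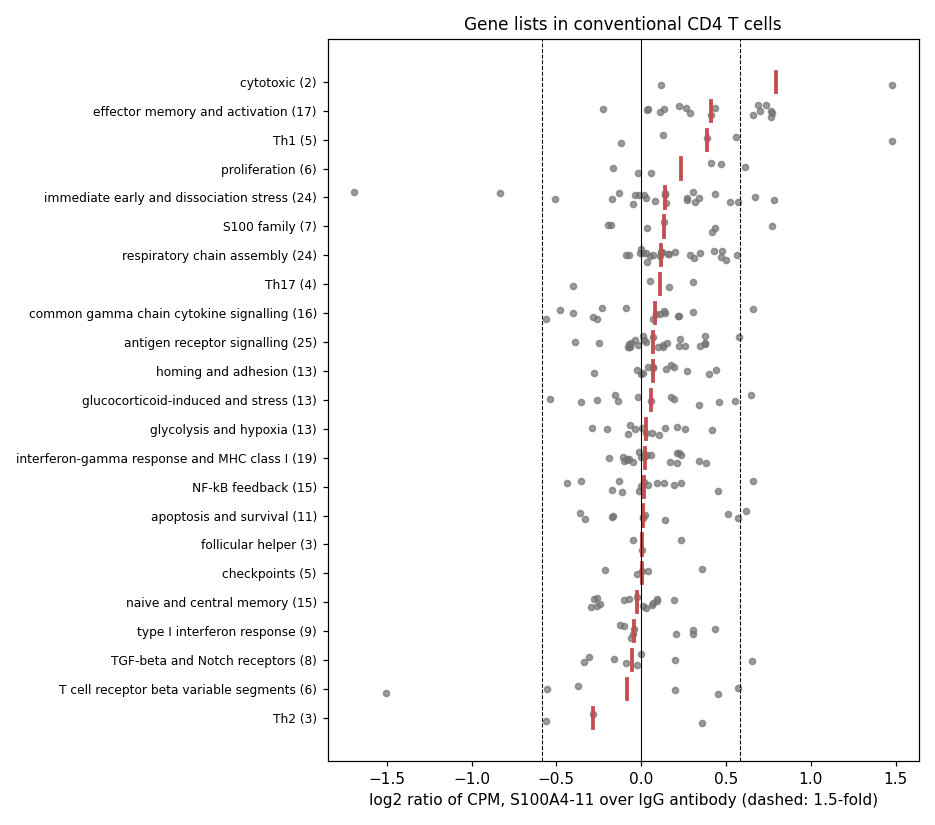
Log2 ratio of CPM (x axis), S100A4-11 antibody over IgG antibody, for each measured gene (grey point) of each list (rows, number of measured genes in brackets), with the list median as a red bar and 1.5-fold as dashed lines. The effector memory and activation list has a median of 0.41 and 7 genes right of the upper dashed line.

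S100a4 (ENSMUSG00000001020, chr3:90603771-90606045 on the plus strand of mm10) had 127 UMIs in 29 cells with S100A4-11 antibody and 71 UMIs in 16 cells with IgG antibody. That gave 129.5 and 75.6 CPM, a ratio of 1.71 (1.27 to 2.33). The share of cells with a UMI was 12.6% (8.57 to 17.5) with S100A4-11 antibody and 7.24% (4.19 to 11.5) with IgG antibody, and the ratio of these shares, 1.73 (0.911 to 3.42), had an interval that held 1. In B cells S100a4 was detected in 1.36% and 2.48%, in neutrophils in 2.14% and 1.99% and in endothelial cells in 1.03% and 1.07%. It was detected in 12.4% and 16.5% of NK cells and in 59.1% and 51.4% of monocytes and macrophages. Monocytes and macrophages held 496 and 441 CPM of it. With IgG antibody the level in conventional CD4 T cells was under 20% of that, and the part of free RNA was not tested. With every cell thinned to 500 UMIs the shares of conventional CD4 T cells were 3.90% and 2.71%, from 9 and 6 cells.

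Cd40lg (chrX:57212143-57224042, plus strand), through which helper T cells license B cells and dendritic cells, differed in the number of cells as well as in level. It was detected in 99 cells (42.9%, 36.4 to 49.5) with S100A4-11 antibody and 65 cells (29.4%, 23.5 to 35.9) with IgG antibody, a ratio of 1.46 (1.06 to 2.02). Its level was 223 and 134 CPM, a ratio of 1.67 (1.33 to 2.09), and 1.91 without the cell with most UMIs in each library. It was detected in 0% and 0.165% of B cells. No single cell of the S100A4-11 antibody library held more than 10 of its 219 UMIs.

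Among the other higher genes of the list, Lgals1, detected in about as many cells as Cd40lg, measured 377 CPM in 92 cells with S100A4-11 antibody and 221 CPM in 73 cells with IgG antibody, a ratio of 1.70 (1.44 to 2.03). NK cells of the same libraries held 2099 and 2218 CPM of Lgals1. Tnfrsf4, a costimulatory receptor of activated CD4 T cells, measured 139.7 CPM in 57 cells and 82.0 CPM in 48 cells, a ratio of 1.71 (1.28 to 2.29). Rgs1, a regulator of chemokine receptor signalling found in tissue-resident T cells, had 278 UMIs with S100A4-11 antibody, 49 of them in 1 cell, and 164 with IgG antibody, and its ratio was 1.62, or 1.43 without the top cell of each library. Il2rb, a chain of the interleukin-2 and interleukin-15 receptors, had 81 UMIs in 39 cells and 49 UMIs in 22 cells, a ratio of 1.58 (1.10 to 2.31). That was 82.6 and 52.2 CPM, against 1607 and 1494 CPM in NK cells of the same libraries. Anxa2, a membrane-binding annexin and partner of S100A10, had 76 UMIs in 35 cells and 45 UMIs in 24 cells, a ratio of 1.62 (1.11 to 2.39). That was 77.5 and 47.9 CPM, against 1154 and 1190 CPM in neutrophils.

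**Figure D4:**
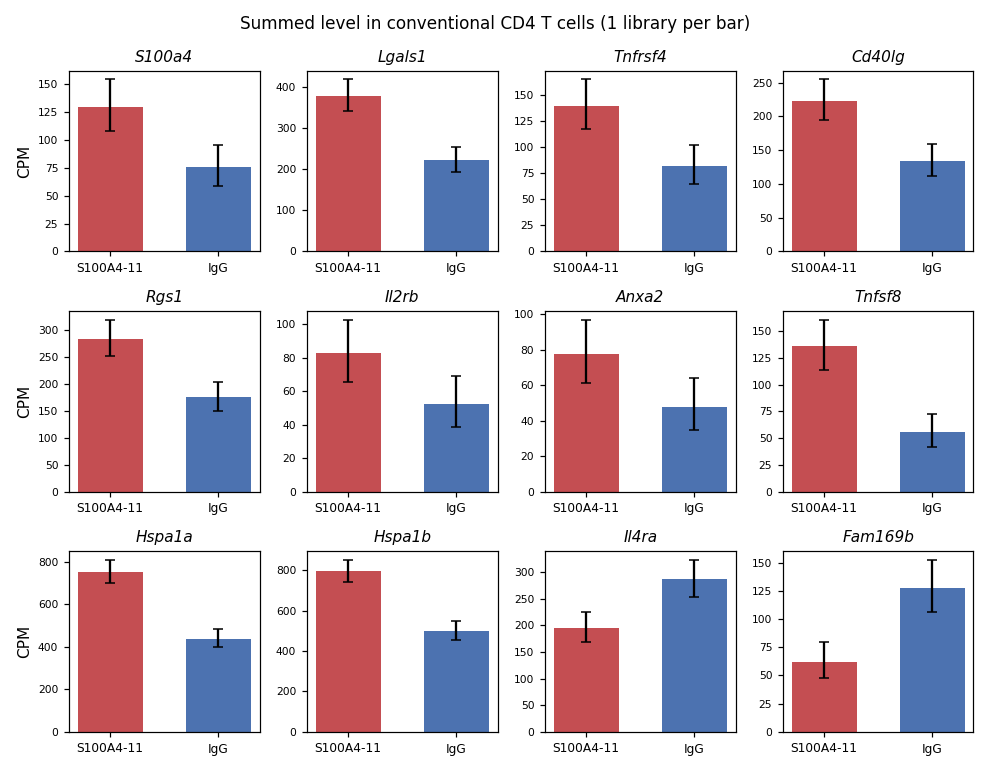
Summed level (y axis, CPM, each panel with its own scale from 0) of 12 genes in conventional CD4 T cells, S100A4-11 antibody left and IgG antibody right, 1 library per bar, with exact 95% Poisson intervals for counting error. The first 10 genes stand higher with S100A4-11 antibody, Fam169b stands lower at 62.2 against 127.7 CPM, and Il4ra at 195 against 287 CPM lies just inside 1.5-fold.

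Cells with an S100a4 UMI were compared with the remaining members inside each library, as a description of what this subset expresses. Their median depth was 4263 UMIs with S100A4-11 antibody and 5081.5 with IgG antibody, against 3984 and 4072 UMIs in cells without one. Of 16 effector memory genes other than S100a4, 16 were higher in S100a4-positive cells with S100A4-11 antibody and 13 with IgG antibody, against 21.5% and 18.2% of all genes, with median log2 ratios of 2.44 and 2.09. Of 13 naive genes compared in the same way, 9 and 8 were lower, against 15.9% and 20.7% of all genes, with medians of -1.80 and -1.83. Lgals1 measured 1650 CPM in S100a4-positive and 147 CPM in S100a4-negative cells with S100A4-11 antibody, and 1043 and 133 CPM with IgG antibody. Igfbp4, a gene of naive CD4 T cells, measured 39.9 and 1041 CPM with S100A4-11 antibody, and 54.9 and 933 CPM with IgG antibody. The naive genes Il7r, S1pr1 and Klf2 differed by less than 1.5-fold in both libraries. Il7r had ratios of 1.15 and 1.02 between S100a4-positive and S100a4-negative cells, S1pr1, which guides exit from lymph nodes, of 0.732 and 0.993, and Klf2 of 0.702 and 1.12. Tcf7 was still detected in 65.5% and 93.8% of S100a4-positive cells.

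**Figure D5:**
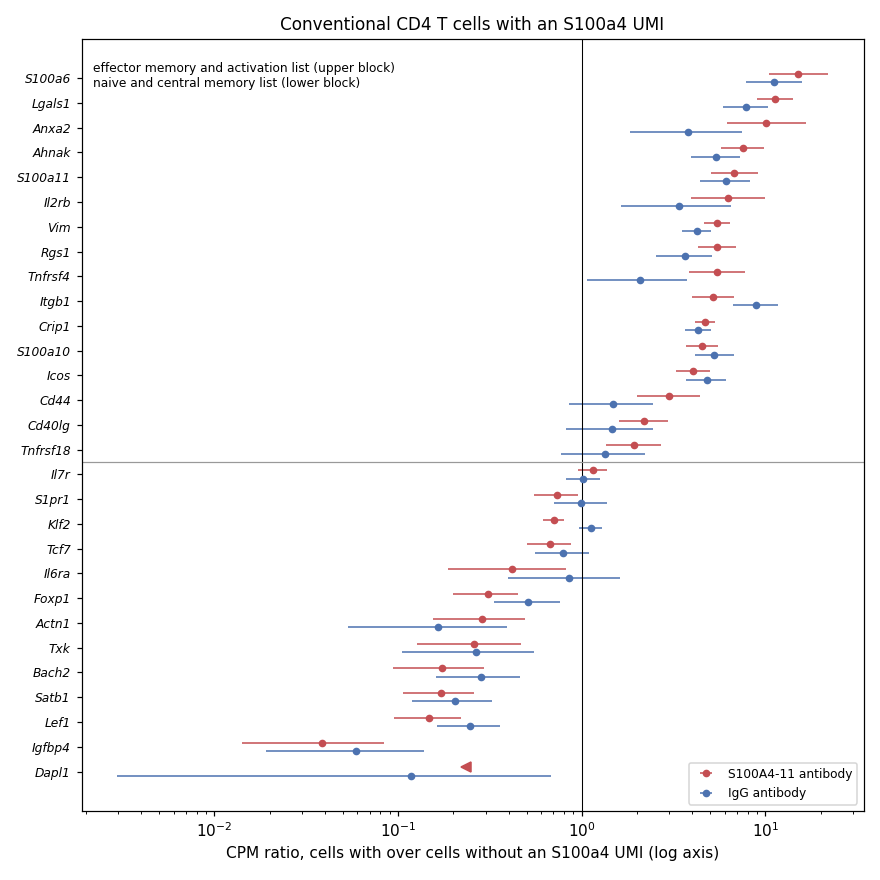
Ratio of CPM in cells with an S100a4 UMI over cells without one (x axis, log scale) for effector memory genes (upper block) and naive genes (lower block), S100A4-11 antibody in red above IgG antibody in blue, with exact 95% intervals for counting error. The left-pointing mark is the upper bound for Dapl1, which had no UMI in the 29 S100a4-positive cells of the S100A4-11 antibody library, and all upper-block genes lie right of 1.

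Among cells without an S100a4 UMI, 202 with S100A4-11 antibody and 205 with IgG antibody, none of the 16 effector memory genes differed by 1.5-fold between the antibodies, against 1.62% of all genes higher, and the median log2 ratio was 0.14. The split removed more cells rich in this list from the S100A4-11 antibody library, which by itself brings the levels closer. Cd40lg was nearest to the limit in that subset, at 189 and 128.5 CPM, a ratio of 1.47 (1.15 to 1.90). Among the 29 and 16 cells with an S100a4 UMI, 7 of the 16 were higher with S100A4-11 antibody, against 23.1% of all genes in these few cells, and the median was 0.37. Tnfrsf4 measured 452 CPM with S100A4-11 antibody and 154 CPM with IgG antibody in those cells, a ratio of 2.94 (1.64 to 5.67). Icos, another costimulatory receptor, measured 1031 and 1087 CPM in them.

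Factors and cytokines of the helper subsets were sparse in both libraries. For type 1 helper cells, Tbx21, the lineage factor, had 10 UMIs in 5 cells with S100A4-11 antibody and 8 UMIs in 5 cells with IgG antibody. Ifng, encoding interferon gamma, had 32 UMIs in 9 cells and 13 UMIs in 6 cells, and the chemokine receptor gene Cxcr3 had 31 UMIs in 17 cells and 19 UMIs in 10 cells. Ccl5, a chemokine of memory and cytotoxic T cells, had 91 UMIs with S100A4-11 antibody, 33 of them in 1 cell, and 31 with IgG antibody, in 13 and 11 cells. It was the 1 higher gene of 5 measured type 1 genes, against 2.02% of all genes higher. The median log2 ratio of these 5 was 0.39, with 4 ratios above 1. Numbers of positive cells differed by at most 7 between the libraries for Tbx21, Ifng, Cxcr3 and Ccl5. They differed by more for other genes of the list, Id2 (54 and 36 cells), Tnf (32 and 19) and Il18r1 (44 and 33). Nkg7 had 32 UMIs in 12 cells and 8 UMIs in 5 cells. Fewer cells were positive with S100A4-11 antibody for Stat4 (100 and 103), Il12rb2 (6 and 10), Hopx (12 and 15) and Ly6c2 (2 and 3).

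For type 2 helper cells, Gata3, their lineage factor, had 75 UMIs in 39 cells with S100A4-11 antibody and 56 UMIs in 33 cells with IgG antibody. Il4 had 14 UMIs in 6 cells and 5 UMIs in 4 cells, Il13 had 2 and 0 UMIs, and Il5 had none in either. Il4ra, the interleukin-4 receptor chain, measured 195 CPM in 105 cells with S100A4-11 antibody and 287 CPM in 135 cells with IgG antibody, a ratio of 0.678 (0.560 to 0.819), just inside the 1.5-fold limit. For type 17 helper cells, Il17a and Il22 had no UMI in either library. At 231 and 221 cells a count of 0 allows a share of cells with a UMI of up to 1.30% and 1.36%. Of follicular helper genes, Bcl6 had 31 and 25 UMIs, Cxcr5 had 4 and 2, and Il21 had 1 and 0. Pdcd1, the PD-1 checkpoint receptor, had 36 UMIs in 11 cells with S100A4-11 antibody, 14 of them in 1 cell, and 3 UMIs in 2 cells with IgG antibody.

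Both inducible HSP70 genes, whose protein chaperones refold damaged proteins, were higher with S100A4-11 antibody. Hspa1a measured 754 CPM in 91 cells with S100A4-11 antibody and 439 CPM in 70 cells with IgG antibody, a ratio of 1.72 (1.52 to 1.94). Hspa1b measured 796 and 500.2 CPM, a ratio of 1.59 (1.42 to 1.79). These neighbouring genes on chromosome 17 encode near-identical HSP70 proteins, so the split of reads between them is uncertain. Of 24 measured immediate early and dissociation stress genes these were the 2 higher, and the transcription factor genes Atf3 and Egr1 were the 2 lower, against 2.02% of all genes higher and 2.35% lower. Atf3 had 32 UMIs in 19 cells with S100A4-11 antibody and 100 UMIs in 26 cells with IgG antibody, and Egr1 had 82 UMIs in 46 cells and 140 UMIs in 42 cells. Both had under 20% of their level in another class, Atf3 reaching 1249 and 951 CPM in monocytes and macrophages and Egr1 1277 and 1112 CPM in neutrophils. Hspa1b gave ratios of 1.41 in B cells, 1.65 in NK cells and 0.706 in endothelial cells. Where Lyz2, S100a8, Cd74, Sftpc and Epcam were also required to be at 0, which left 107 and 59 cells, the ratio of Hspa1b was 0.867 and that of Hspa1a was 1.24.

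Other genes named by the ranking were single members of several pathways. Tnfsf8, encoding the CD30 ligand, had 133 UMIs in 46 cells with S100A4-11 antibody, 33 of them in 1 cell, and 52 UMIs in 35 cells with IgG antibody, a ratio of 2.45 (1.77 to 3.45) that was 1.40 without cells with a Ctla4, Ikzf2 or Il2ra UMI. Tgfb1, the transforming growth factor beta 1 gene, measured 218 CPM in 106 cells and 138.4 CPM in 86 cells, a ratio of 1.58 (1.26 to 1.98), while its ratio was 0.945 in B cells and 0.921 in CD8 T cells. Arhgap30 measured 121 and 70.2 CPM, a ratio of 1.73 (1.27 to 2.37).

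Of the genes lower with S100A4-11 antibody, Fam169b measured 62.2 CPM in 51 cells against 127.7 CPM in 81 cells, a ratio of 0.487 (0.352 to 0.668). Usp9x, an X-linked deubiquitinase gene, measured 56.1 CPM in 50 cells against 109.6 CPM in 75 cells, a ratio of 0.512 (0.362 to 0.717), and Zfp148, a zinc finger factor gene, measured 43.9 against 93.7 CPM, a ratio of 0.468 (0.317 to 0.682). St6gal1, Exoc4, Lpp, Pitpnc1, Epb41, Zbtb20 and Gm26917 were also lower, with ratios of 0.575 to 0.663. Lpp and Zbtb20 had ratios of 1.02 and 1.03 once cells with 5 or more UMIs of another lineage were left out, and Gm26917 had 127 of its 354 UMIs in 1 cell of the IgG antibody library. Among signalling genes within the 1.5-fold limit, Stat5b, a transcription factor downstream of interleukin-2 and interleukin-7, had a ratio of 0.716 (0.608 to 0.842) and Stat3 one of 0.756 (0.634 to 0.901).

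Most other lists stayed near the background. None of 25 antigen receptor signalling genes, 13 homing genes, 19 interferon gamma and MHC class I genes, 9 type I interferon genes, 13 glycolysis genes or 24 respiratory chain genes passed 1.5-fold in either direction. Their medians were 0.07, 0.07, 0.02, -0.04, 0.03 and 0.12. Of 16 checkpoint genes only 5 were measured and none of these passed. The other 11 lay under 100 UMIs, among them Pdcd1 with 36 UMIs with S100A4-11 antibody and 3 with IgG antibody. Lag3 (1 and 5), Havcr2 (1 and 3) and Btla (31 and 32) had fewer UMIs with S100A4-11 antibody. The 16 common gamma chain genes had 1 higher, Il2rb. The shares over all genes were 2.02% higher and 2.35% lower. A UMI of 12 cell cycle genes was found in 30 cells with S100A4-11 antibody and 16 with IgG antibody, and at least 3 such UMIs in 3 and 2 cells.

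Against CD8 T cells of the same library, Cd40lg was 10.1-fold higher in conventional CD4 T cells with S100A4-11 antibody and 10.6-fold higher with IgG antibody, and Tnfrsf4 12.7-fold and 6.46-fold. Tbc1d4, St8sia6 and Pdlim4 were also higher in both libraries, and Ly6c2, Nkg7, Ccl5, Cst7, Ctsw and Klrd1, most of them genes of cytotoxic cells, were lower. Against regulatory T cells, the naive genes Igfbp4, Satb1, Lef1 and Tcf7 were higher and Lgals1, S100a10, S100a6, S100a4, Anxa2 and Tigit were lower in both libraries. S100a4 measured 129.5 CPM in conventional and 576 CPM in regulatory cells with S100A4-11 antibody, and 75.6 and 591 CPM with IgG antibody. These genes were taken from 4291 and 2910 genes compared and chosen after their values were seen.

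A T cell receptor beta variable segment was detected in 82.3% of cells with S100A4-11 antibody and 85.1% with IgG antibody, and exactly 1 segment in 150 and 134 cells. Trbv31 was the only segment in 21 (14.0%) and 19 (14.2%) of those cells, against 6 of 125 and 5 of 118 CD8 T cells. Trbv20 was the only segment in 8 cells (5.33%, 2.33 to 10.2) with S100A4-11 antibody and 15 cells (11.2%, 6.40 to 17.8) with IgG antibody. Among cells with exactly 1 segment none dominated in either library, the highest share being 16.4% for Trbv19 with IgG antibody. Counting every cell with a UMI, Trbv13-2 was the most frequent segment, in 37 cells with S100A4-11 antibody and 40 with IgG antibody. It was the only segment in 19 and 14 of these.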

How the data were processed

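Per the submitters' processing notes, the authors processed the reads with Cell Ranger 7.1.0 against mm10. The deposited matrices hold UMI counts per gene and barcode, a unit read from the values, which are whole numbers. Barcodes with at least 200 genes and at most 15% mitochondrial UMIs were kept. Doublets were not removed in the main analysis, and Scrublet in Scanpy 1.11.5 called 615 S100A4-11 antibody and 627 IgG antibody barcodes for an alternative, 1 member in each library among them. UMIs of the members were summed per library and divided by their total, giving CPM. Ratios have exact conditional binomial intervals, shares exact Clopper-Pearson intervals and levels exact Poisson intervals (scipy 1.17.1), the ratio of 2 shares is treated as one of independent counts, which widens its interval where shares are high, and log2 ratios used a pseudocount of 0.5. Coordinates are from GENCODE M21. Named genes were the 12 highest and 12 lowest by the interval bound nearest 1, with at least 100 UMIs, 50 CPM in 1 library and 20% of the level in any other class, leaving out rule genes and mitochondrial, ribosomal protein, haemoglobin and receptor segment genes, plus 3 genes per list, S100a4 and the helper subset lists. The ratio code was tested on simulated data. TMM scaling used edgeR 4.0.16. The members and the 23 gene lists were chosen with earlier results of these data known. Mx1 and Scart2 matched no feature used here. A few named genes are not reported here.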

Additional observations from a re-analysis of the deposited data

Results flagged for a closer look

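Only the 81 named genes with at least 100 UMIs were screened here, and the share over all measured genes was not computed. For 4 of them the S100A4-11 over IgG ratio lay above 1.5 in conventional CD4 T cells. In CD8 T cells of the same libraries it was lower by at least 1.5-fold, with neither interval holding 1. The difference between the classes was not tested, since each rests on 1 library per antibody. S100a4 had a ratio of 1.71 in conventional CD4 T cells and 0.277 (0.172 to 0.430) in CD8 T cells, where it measured 28.7 CPM with S100A4-11 antibody and 104 CPM with IgG antibody. Lgals1 had ratios of 1.70 and 0.323 (0.264 to 0.392), with 149 and 461 CPM in CD8 T cells. Ccl5 had ratios of 2.81 and 0.563 (0.509 to 0.623), and its conventional CD4 value included 33 of 91 UMIs from 1 cell. Stmn1, a cell cycle associated gene, had ratios of 1.53 and 0.321 (0.202 to 0.495). The CD8 T cells also differed in transcripts of another lineage. Lyz2, a monocyte and macrophage marker, measured 240 CPM in them with S100A4-11 antibody and 1574 CPM with IgG antibody. Their largest barcode held 11914 UMIs with S100A4-11 antibody and 30646 with IgG antibody. The part of such barcodes in the CD8 ratios, and what the opposite directions stem from, was not tested.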

How the results depend on the processing

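No paired analysis was possible because each antibody has 1 library and no replicate numbers, and no replicate could be left out. The number of genes higher by 1.5-fold was 31 where a Trac, Trbc1 or Trbc2 UMI was also required, 97 under median-of-ratios scaling and 22 without cells with an S100a4 UMI. The number of genes lower by 1.5-fold was 27 with Lyz2, S100a8, Cd74, Sftpc and Epcam also at 0 and 24 without cells with 5 or more UMIs of another lineage. By the UMI floor, counts higher and lower were 3579 and 3774 with no filter, 492 and 474 at 30 UMIs, and 7 and 8 at 300 UMIs. The effector memory count and median log2 ratio were 3 and 0.32 with the receptor requirement, 4 and 0.23 with the 5 genes at 0, 3 and 0.32 without other-lineage cells, 1 and 0.26 without Ctla4, Ikzf2 or Il2ra cells, 0 and 0.15 without S100a4 cells, and 3 and 0.29 at 300 UMIs. The share ratio was 2.10 with the 5 genes at 0, which removed more IgG antibody cells. The cause of the other shifts was not tested. A turn to the other side of 1 was scored only for named genes past 1.5-fold in the main analysis. Gm26917 turned to 1.04 with at least 2 Cd3 UMIs, 1.09 with the 5 genes at 0 and 1.28 without other-lineage cells. Lpp (1.02) and Zbtb20 (1.03) turned without other-lineage cells, and Ddit4 (0.474), Nfkbid (0.826) and Hspa1b (0.867) with the 5 genes at 0. Of 1133 ratios of named genes, pooled over all settings, 1061 stayed inside the interval of the main value. The pool includes settings that changed little, such as TMM scaling and leaving out Scrublet doublets, where all 81 stayed inside. The share was lower with the 5 genes at 0, where 44 of 81 stayed inside and 33 moved outside. A further 4, past 1.5-fold in the main analysis, turned to the other side of 1. Settings that left out cells by other-lineage, Ctla4, Ikzf2, Il2ra or S100a4 UMIs, or 1 top cell per gene, were chosen after seeing the data. With 16 IgG antibody cells that held S100a4, values in that subset limit what can be read.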
